A study of Mus musculus with 36 samples.

Results

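The 30 genes described here carry out or control the oxidation of fatty acids: the carnitine shuttle, the enzymes of mitochondrial beta oxidation, the proteins that pass its electrons on, a pair each of peroxisomal enzymes, thioesterases, uncoupling proteins and binding proteins, and 3 regulators. They are a list of gene names whose rule uses no measured value, though the list was chosen with earlier results of these data known. All 30 were found among the 49585 features of the deposited tables. The samples were whole bladders of C57BL/6 mice. Every group, controls included, had had both adrenal glands removed, which takes away the main source of corticosterone. After recovery, mice received CORT (corticosterone, the main glucocorticoid of mice) in their inactive phase, or vehicle, and total RNA was sequenced at 6 labelled times (4, 8, 12, 16, 20 and 24 h), with 3 libraries in each of the 12 groups and 18 libraries per treatment. No group with intact adrenals was analysed here, and the sources used here give neither the dose nor the age of the mice, nor what the time labels count from. The labels leave unsaid whether the 3 libraries of a group come from 3 animals, so the spread behind each p-value may be technical in part.

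In beta oxidation, a fatty acid is bound to coenzyme A, carried into the mitochondrion as a carnitine ester, and shortened in repeated rounds of dehydrogenation, hydration, a second dehydrogenation and thiolytic cleavage. Electrons of the first dehydrogenation enter the respiratory chain through the electron transfer flavoprotein, and those of the second are carried by NADH. In liver, heart and skeletal muscle many of these genes are targets of the nuclear receptor PPARalpha and its coactivator PGC-1alpha, and glucocorticoids are known to act on the pathway in fasting. The bladder wall combines a urothelium, a thick smooth muscle coat, connective tissue and vessels, and these cell types differ in their fuel use.

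The depth and the state of the libraries set the frame. The authors' quantile normalization hides the depth of single libraries, but the mean total per library was 11016413 reads for CORT and 10682675 for vehicle, and ranged from 9591304 to 12311337 over treatment and replicate number. Markers of bladder cells were high, with the 7 smooth muscle markers summing to between 144011 and 413094 normalized reads per library and the 7 urothelial markers to between 36957 and 90487. The protocol text, by contrast, describes RNA from blood. At 4 h, 4 of 5 known glucocorticoid targets rose with CORT past the test (Fkbp5, Tsc22d3, Per1 and Sgk1, by 1.49 to 2.31 on the log2 scale), and Zbtb16, at 2.12, did not pass. Over the day, 6 of 7 endothelial markers and 3 of 6 fibroblast markers (Col1a1, Col1a2 and Col3a1) were lower with CORT past the test. Of all features 2.85% were lower past the test. These 3 fibroblast markers are all collagen chains, and 2 of the 6 fibroblast markers were above 0. In a second set of deposited tables, 8 libraries of replicate 2 carry another name, in part of the other treatment. The names of the full tables are used here; under them Fkbp5 was at 1390, 2778 and 3138 in the 3 libraries of CORT 4 h, and at 544.9 in vehicle 16 h replicate 2, which the other tables name CORT 4 h replicate 2. With the other names no feature passed limma's test in the day mean (1 of the 30 members had an unadjusted p under 0.05).

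All 30 genes had reads in most libraries, but their levels spanned 3 orders of magnitude. Levels were compared between genes as normalized reads per kb of exon, with the exons of all annotated transcripts of a gene joined. A gene with annotated exons that are rarely used would be set too low, and how far this moves the order was not tested. Acadl, long-chain acyl-CoA dehydrogenase, was highest with a median of 1158 reads per kb (908.8 to 1407 over the 36 libraries). It was followed by the mitochondrial thiolase Acaa2 (median 850.1), the dienoyl-CoA isomerase Ech1 (523.3) and the flavoprotein subunits Etfa (415.0) and Etfb (379.3). The ranges of Acadl and Acaa2 over the libraries overlapped, as did those of Ech1 and the flavoprotein subunits, while the range of Ech1 lay below that of Acaa2. The very-long-chain enzyme Acadvl had 377.1, the medium-chain enzyme Acadm 215.1 and the short-chain enzyme Acads 201.5 reads per kb. Thus the 4 acyl-CoA dehydrogenases all stood well above the regulators, of which Ppara had 90.2, Ppard 74.0 and Ppargc1a 19.8.

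**Figure D1:**
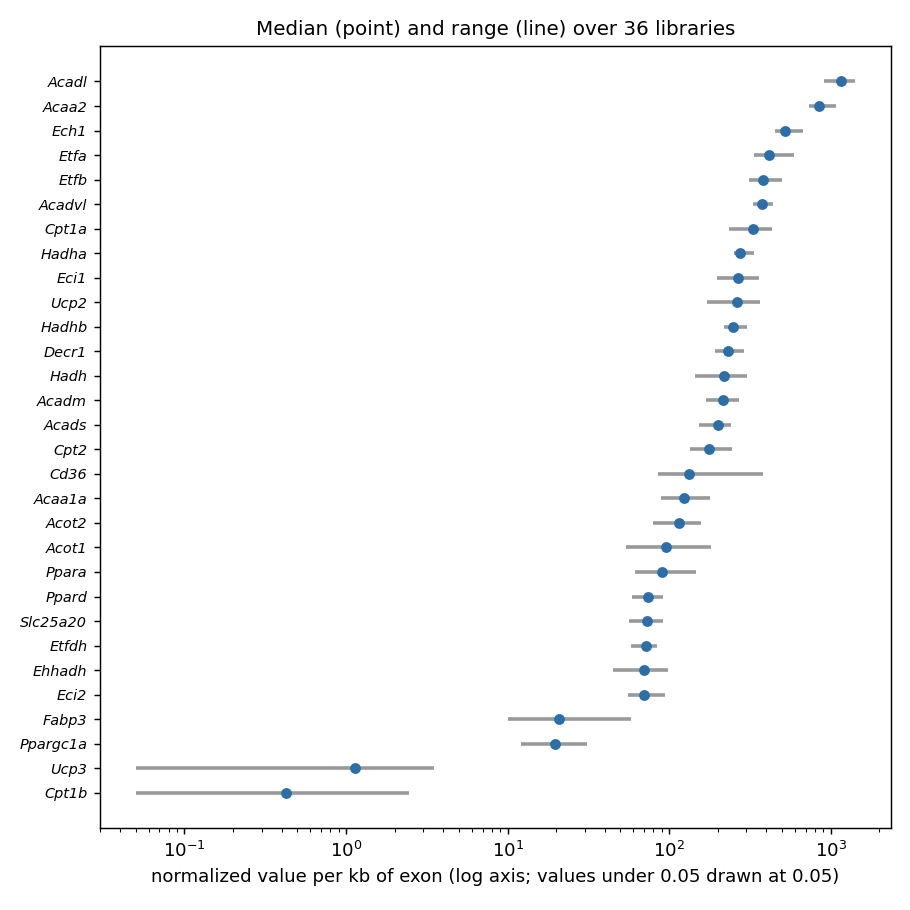
Normalized reads per kb of exon for the 30 genes on a log axis, 1 row per gene, with the point at the median and the line from the lowest to the highest of 36 libraries. Acadl leads at a median of 1158, and Ucp3 and Cpt1b lie at about 1 or below.

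Of Cpt1a and Cpt1b, and of Ucp2 and Ucp3, the bladder libraries held mainly 1 form. Cpt1a, the liver form of the carnitine palmitoyltransferase that starts the shuttle, had a median of 331.3 reads per kb, whereas Cpt1b, the muscle form, had 0.428. Ucp2, the widely expressed uncoupling protein, had 263.9 and Ucp3, the muscle form, 1.14. Fabp3, the heart and muscle fatty acid binding protein, was also low at 20.8. Of the peroxisomal thiolases, Acaa1a had a median of 0.203 times the reads per kb of Acaa1b, and was below it in all 36 libraries. The size of this ratio depends on the length used. The joined exons were 4414 bases for Acaa1a and 1962 for Acaa1b, whereas 1 coding transcript of each had 1762 and 1689 bases. Hadha and Hadhb, the alpha and beta subunits of the trifunctional protein, lie head to head on chromosome 5 of mm10 (chr5:30118304-30155162 and chr5:30155248-30184593). Their levels per kb were close, with a median ratio of 1.099 (0.971 to 1.28), over joined exons of 8730 and 6595 bases. Before this division their mean values were 2430 and 1655.

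Some of these genes have close copies, which bears on how far their reads can be told apart. Acot1 and Acot2, cytosolic and mitochondrial thioesterases that release free fatty acids from coenzyme A, lie next to each other on chromosome 12 (chr12:84009490-84018371 and chr12:83987861-83993873). Their coding sequences were 95.31% identical over 1236 aligned bases in the GENCODE transcripts, with a longest identical run of 273 bases. The stretch of 60 coding bases with the most differences is printed to show what separates the pair, with the 13 differing bases in capitals; Acot1 is given from coding base 823 to 882 and Acot2 from 946 to 1005.
Acot1: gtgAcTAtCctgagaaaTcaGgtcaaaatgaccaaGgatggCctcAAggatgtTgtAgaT
Acot2: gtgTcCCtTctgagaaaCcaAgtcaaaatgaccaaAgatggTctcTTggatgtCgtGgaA
Of all 100-base words of the Acot1 transcript, 16.5% also occur in Acot2, and of the Acaa1a words 21.6% occur in Acaa1b. The sources used here do not give how the authors' counting treated such reads, so the values of Acot1, Acot2 and Acaa1a are uncertain to that extent. No 100-base word was shared by Cpt1a and Cpt1b or by Ucp2 and Ucp3.

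The first comparison asked whether CORT changed the level of these genes when all 6 times were averaged. None of the 30 genes passed the test over the day (limma, Benjamini-Hochberg adjusted p under 0.05 over 17744 features), against 4.14% of all features tested. At an unadjusted p under 0.05 the count was 5 of 30, against 20.3% of features, and a test without variance moderation also called 0. The differences were small and mostly of 1 sign: 28 of 30 were above 0, as were 58.3% of all features, and their median was 0.08 on the log2 scale against 0.02 for all features. Etfdh, which hands electrons from the flavoprotein to ubiquinone, had the lowest difference, -0.07 ± 0.04 (SE). The 95% interval of the difference lay within 1.2-fold in either direction for 22 of 30 genes, against 47.7% of features. The 8 others were Cpt1b, Ehhadh, Acot1, Ucp3, Ppara, Ppargc1a, Cd36 and Fabp3. The share of all features includes features with few reads, so it is not a comparison at like level. At a mean value of at least 100, the 27 members had a median SD within groups of 0.18, against 0.16 for 10156 features. Their median absolute difference was 0.08 against 0.07, so at this level the members were not tighter than other features.

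**Figure D2:**
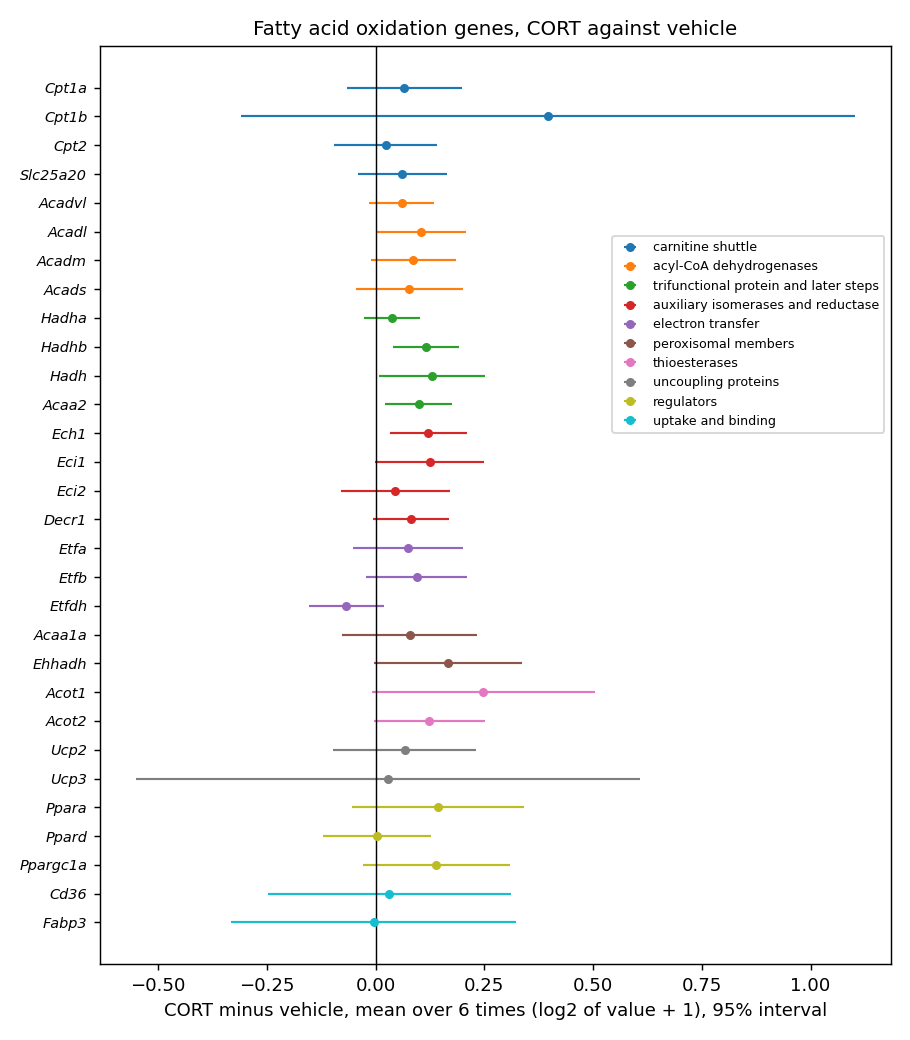
Difference between CORT and vehicle averaged over 6 times (log2 of value + 1), with 95% intervals from limma, for the 30 genes coloured by role. Most points lie slightly to the right of 0, and the wide intervals belong to the genes with few reads, Cpt1b and Ucp3.

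Hadhb, which holds the thiolase activity of the trifunctional protein, had values from 1444 to 1826 (median 1590) in the vehicle libraries and from 1539 to 1993 (median 1708) in the CORT libraries. The ranges overlapped widely. The difference was 0.12 ± 0.04 on the log2 scale (1.08-fold, 95% interval 1.03 to 1.14), and its limma adjusted p of 0.0744 was the smallest of the 30. Its partner Hadha, with an interval of 0.982- to 1.07-fold, was the member that varied least between libraries of a group (SD 0.08 on the log2 scale). Ech1 differed by 0.12 ± 0.04, Acaa2 by 0.10 ± 0.04, and Hadh, the short-chain hydroxyacyl-CoA dehydrogenase, by 0.13 ± 0.06. Their limma adjusted p-values were 0.103, 0.131 and 0.215.

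The acyl-CoA dehydrogenases, which catalyse the first step, differed by 0.06 to 0.10, with Acadl at 0.10 ± 0.05. Acadl ranged from 1941 to 2820 (median 2171) with vehicle and from 1822 to 2707 (median 2444) with CORT, so the vehicle group held the highest library and the CORT group the lowest. In the shuttle, the differences were 0.07 ± 0.06 for Cpt1a, 0.02 ± 0.06 for Cpt2 and 0.06 ± 0.05 for the carnitine-acylcarnitine translocase Slc25a20. None of these had a limma adjusted p below 0.24. The isomerases Eci1 and Eci2 differed by 0.12 ± 0.06 and 0.05 ± 0.06, and the reductase Decr1 by 0.08 ± 0.04.

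The 3 largest differences belonged to genes with a wide spread. Cpt1b, in the vehicle libraries, ranged from the lowest value of the scale to 8.33 (median 0.777), and in the CORT libraries from 0 to 6.77 (median 2.19). These are a few reads per library, and the difference of 0.40 ± 0.34 had a limma adjusted p of 0.547. Acot1 ranged from 216.8 to 711.2 (median 346.9) with vehicle and from 211.2 to 651.1 (median 427.4) with CORT. The 2 ranges largely coincided, and the difference of 0.25 ± 0.12 had a limma adjusted p of 0.265. Ehhadh, the peroxisomal bifunctional enzyme, ranged from 134.3 to 293.4 (median 200.5) with vehicle and from 166.2 to 276.3 (median 221.7) with CORT, a difference of 0.17 ± 0.08 with a limma adjusted p of 0.260.

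The regulators and the uptake proteins also did not pass. Ppara, the fatty acid sensing receptor, differed by 0.14 ± 0.10, Ppargc1a, which encodes PGC-1alpha, by 0.14 ± 0.08, and Ppard by 0.00 ± 0.06. Cd36, a fatty acid transporter of the plasma membrane, had a CORT range (366.2 to 777.6) inside its vehicle range (306.7 to 1379), and differed by 0.03 ± 0.14. It had the widest spread within groups among the 27 members with a mean value of at least 100 (SD 0.42 on the log2 scale, against a median of 0.18 for these members).

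The second comparison took the difference at each time, 3 libraries against 3. Its SE and p-values rest on 1 spread per gene pooled over all 12 groups, not on the libraries of that time alone. None of the 30 genes passed at any time (limma, adjusted over all features). Among all features the share that passed was 0.163% at 4 h, 0.766% at 8 h, 0.0451% at 12 h, 0.0113% at 16 h, 0% at 20 h and 0.0338% at 24 h. At an unadjusted p under 0.05 the members' counts were 0, 3, 0, 0, 1 and 1 in the order of the times, and a test without moderation called 0 at each. For all features the unadjusted shares were 6.94%, 15.2%, 4.53%, 3.89%, 5.99% and 6.32%.

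**Figure D3:**
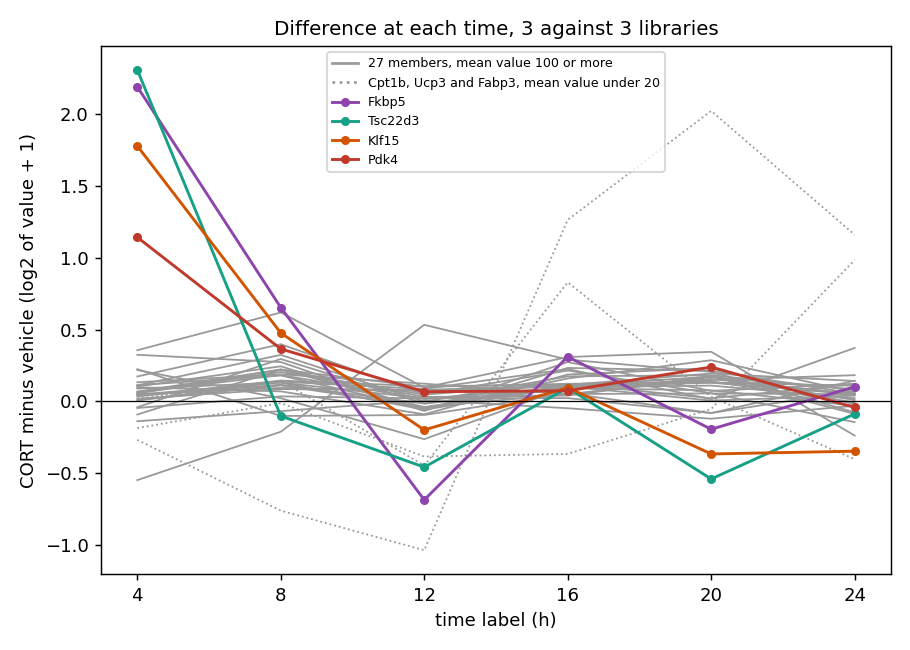
Difference between CORT and vehicle at each labelled time (log2 of value + 1, 3 against 3 libraries) for the 30 genes in grey and 4 genes outside the set in colour. Fkbp5, Tsc22d3, Klf15 and Pdk4 stand 1.14 to 2.31 above 0 at 4 h, while the 27 members with a mean value of at least 100 lie between -0.55 and 0.62 at all times.

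At 4 h, where the glucocorticoid targets were highest, the smallest p-values among the members were those of Cd36 at -0.55 ± 0.33, Ehhadh at 0.32 ± 0.20 and Cpt2 at 0.22 ± 0.14, with limma adjusted p-values of 0.828 to 0.841. At this time 3 members had all CORT values above all vehicle values (7.15% of features did), and 1, Etfdh, had them all below (6.5% of features).

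The 8 h groups differed most. All 3 CORT values lay above all 3 vehicle values for 10 of 30 genes, against 12.8% of features: Cpt1a, Acadl, Acadm, Hadha, Hadh, Ech1, Ehhadh, Acot1, Acot2 and Ppara. Acot2 had 278.6, 257.3 and 247.3 with CORT and 176.1, 211.2 and 207.8 with vehicle, a difference of 0.40 ± 0.15 (limma adjusted p = 0.199). Acadm had 1065, 877.8 and 868.5 with CORT and 831.1, 761.2 and 694.9 with vehicle, a difference of 0.29 ± 0.12 (limma adjusted p = 0.220). The groups of both genes were separate. Acaa2 differed by 0.22 ± 0.09 (limma adjusted p = 0.246), with overlapping groups. Acot1 had 452.7, 442.1 and 425.4 with CORT and 238.7, 333.8 and 294.1 with vehicle. The 8 h groups also differed in the endothelial and fibroblast markers, of which Pecam1, Vwf, Col1a1 and Col3a1 were lower with CORT past the test. Of all features 0.642% were lower past the test at 8 h. All 7 urothelial markers were above 0 at 8 h (median 0.38 on the log2 scale) and none passed limma's test (1 had an unadjusted p under 0.05, and a test without moderation called 0). The summed urothelial markers were 68330, 59383 and 60993 with CORT and 43356, 57897 and 51693 with vehicle, so the groups of the sum were separate too. The part of these cell types in the 8 h values of the members was not tested.

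**Figure D4:**
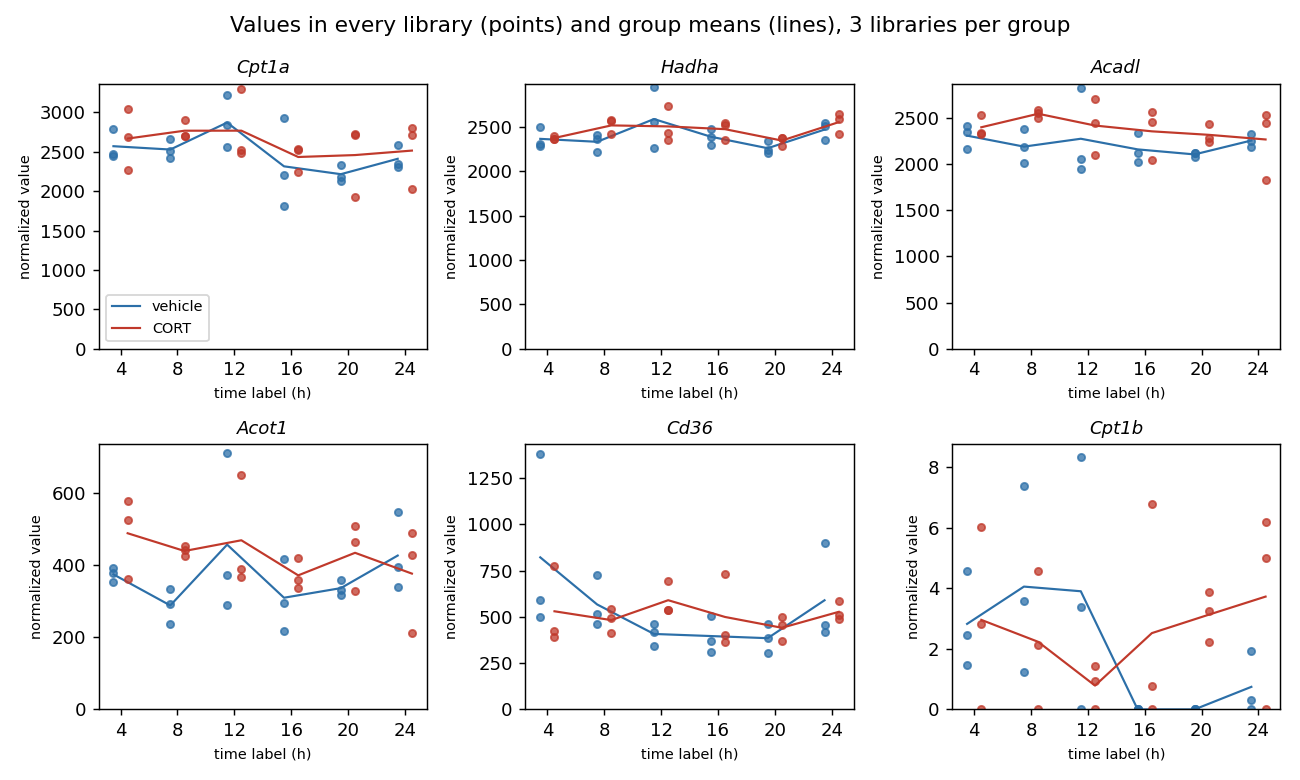
Normalized values of 6 members at each labelled time, with 1 point per library, lines through the means of 3 libraries, and vertical axes from 0. The treatments overlap at most times; all 3 CORT points of Acot1 lie above the vehicle points at 8 h, and the vehicle points of Cpt1b lie at the bottom at 16 and 20 h.

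Later times gave less. At 12 h and 16 h, 1 member each had separate groups with CORT above, Cd36 and Decr1 (3.27% and 3.15% of features). The smallest p-values at 12 h belonged to Cd36 (0.53 ± 0.33), Ucp2 (-0.26 ± 0.20) and Hadhb (0.12 ± 0.09), and at 16 h to Hadh (0.23 ± 0.14), Cpt1b and Acot2 (0.21 ± 0.15). At 20 h the CORT values were all above the vehicle values for 8 members, against 8.69% of features: Cpt1b, Slc25a20, Acadl, Acadm, Acads, Hadhb, Ech1 and Eci1. Cpt1b had 3.89, 2.24 and 3.25 with CORT there, while the 3 vehicle libraries lay at the lowest value of their scale, so no fold is given (limma adjusted p = 0.737). Eci1 differed by 0.29 ± 0.15 and Ech1 by 0.19 ± 0.10. At 24 h the 2 members with separate groups were Acaa2 and Ppargc1a (6.22% of features). Fabp3 differed by 0.98 ± 0.39 at 24 h (limma adjusted p = 0.607), from CORT values of 47.5, 14.8 and 22.1 against vehicle values of 19.8, 10.8 and 8.27. The groups overlapped and 1 CORT library stood far above the others.

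The third comparison asked whether the genes followed a 24 h rhythm. None passed in the vehicle libraries (limma F test of cosine and sine terms over 18 libraries, adjusted over all features), against 0.44% of features, and 3 had an unadjusted p under 0.05 (12.7% of features). None passed in the CORT libraries, where 0% of features passed and 0 members had an unadjusted p under 0.05 (5.89% of features). The difference of the rhythms between treatments passed for none, against 0.107% of features, and 1 member had an unadjusted p under 0.05 (4.4% of features). Tests without moderation called 0 in each. The fitted amplitude, from the mean to the peak on the log2 scale, was under 0.15 for 25 members with vehicle and 26 with CORT. Its medians were 0.09 and 0.08, against 0.12 and 0.10 for all features, whatever their level.

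The 3 members with the smallest p in vehicle were Cpt1b, Cd36 and Fabp3. Cpt1b had an amplitude of 1.23 ± 0.26 with a fitted peak at 7.35 h (limma adjusted p = 0.0798), and 0.53 ± 0.35 with CORT. Its 6 vehicle libraries of 16 and 20 h all lay at the lowest value of the scale, and its other 12 reached at most 8.33. The limma adjusted p for the difference of its rhythm was 0.663. Cd36 had an amplitude of 0.48 ± 0.14 with vehicle, peaking at 4.22 h (limma adjusted p = 0.240), and 0.09 ± 0.11 with CORT. Fabp3 had 0.37 ± 0.12, peaking at 10.7 h (limma adjusted p = 0.304). In the CORT libraries the smallest p-values were those of Ppargc1a (amplitude 0.18 ± 0.08), Ech1 and Acadm, with limma adjusted p-values of 0.888 to 0.938. Cpt1a and Hadha had amplitudes of 0.14 ± 0.06 and 0.03 ± 0.04 with vehicle.

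Other genes of the same pathways, 90 in 6 lists, put these values in context. The first list, 16 further genes of beta oxidation and related steps, was mainly mitochondrial but also held peroxisomal enzymes such as Acaa1b. It held enzymes of amino acid breakdown, such as Ivd, as well. Of these 16, 15 were above 0 over the day and 1, Hsd17b10, rose past the test (0.16 ± 0.04, limma adjusted p = 0.0174). Hsd17b10 is a hydroxyacyl-CoA dehydrogenase and also a subunit of mitochondrial ribonuclease P. At 8 h its CORT libraries had a mean of 621.7 ± 30.3 (SD, n = 3) and its vehicle libraries 472.1 ± 52.3 (SD, n = 3), a difference of 0.40 by limma (adjusted p = 0.0329). None of 15 peroxisomal genes passed over the day, the smallest limma adjusted p being that of Phyh, which starts the breakdown of phytanic acid (0.14 ± 0.04, adjusted p = 0.0600). None of 14 uptake and activation genes passed (the acyl-CoA synthetase Acsl3, 0.14 ± 0.05, limma adjusted p = 0.105), and none of 13 lipid droplet and lipolysis genes (the monoglyceride lipase Mgll, -0.37 ± 0.12, limma adjusted p = 0.0741). Of 15 genes of fuel choice, Pdk1, a kinase that switches off pyruvate dehydrogenase, rose by 0.19 ± 0.05 (limma adjusted p = 0.0310). Of 17 transcription factors and coactivators, the deacetylase Sirt1 rose by 0.18 ± 0.05 (limma adjusted p = 0.0358). In the order of these lists, 9, 3, 2, 2, 3 and 3 genes had an unadjusted p under 0.05. Of all features 20.3% did, and 4.14% passed the adjusted test. Over 54 other settings of the day mean, Hsd17b10 did not pass in 7, Pdk1 in 16 and Sirt1 in 19.

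Pdk4, another kinase of pyruvate dehydrogenase and a well-known glucocorticoid and PPAR target, rose at 4 h. Its CORT libraries had 1186, 2905 and 3034 and its vehicle libraries 877.2, 890.2 and 1241, a difference of 1.14 ± 0.23 (limma adjusted p = 0.0319). The lowest CORT library lay below the highest vehicle library. Klf15, a glucocorticoid-induced transcription factor, stood at 322.9, 501.6 and 727.3 with CORT and at 127.4, 135.4 and 166.0 with vehicle at 4 h. Its difference of 1.78 ± 0.44 had a limma adjusted p of 0.120. Over the same 4 h groups, the 27 members with a mean value of at least 100 differed by -0.55 to 0.36.

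The levels of many members moved with the RNA levels of cell type markers across the libraries. This was measured against the summed markers of 4 cell types, in 120 relations over the 36 libraries, a set picked with the data in view. In whole tissue, fewer cells of a type and less RNA per cell cannot be told apart. Pearson's r with the urothelial sum was above 0.5 for 13 of 30 members (43.3%), against 12.9% of all features. With the smooth muscle sum it was below -0.5 for 14 members (10.1% of features), and with the striated muscle sum for 15 (9.37% of features). The sums themselves were related, with r of -0.744 between urothelium and smooth muscle and 0.819 between the 2 muscle sums, so these are not separate observations. The sums also differed by replicate number: replicate 1 had the highest smooth muscle sum in 12 of the 12 groups and the lowest urothelial sum in 10. Within replicate 1 the r with smooth muscle was above 0 for Cpt1a (0.409), Ppara (0.248), Hadh (0.243) and Ucp2 (0.039). The others of the 14 were below 0 there, Acadl the lowest at -0.498, and within replicates 2 and 3 all 14 were below 0. With striated muscle, the 15 ranged within replicate 1 from -0.701 (Acadl) to -0.008 (Cpt1a).

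Acadl followed the urothelial sum most closely. Its r was 0.807 and Spearman's rho 0.801, with permutation p-values of 1e-05, the smallest the permutations can give, and 2e-05, and an adjusted permutation p for r of 8e-05. The r was 0.817 without the 2 libraries farthest from the median sum, 0.728 within vehicle and 0.884 within CORT, and 0.746, 0.714 and 0.779 within replicates 1, 2 and 3. Acads, Acot1 and Eci1 had r of 0.687, 0.680 and 0.662 and rho of 0.715, 0.684 and 0.691 (adjusted permutation p for r from 8e-05 to 0.000209). Etfdh, Eci2, Acadm, Cd36 and Cpt1b had r below 0, from -0.317 to -0.110, none with an adjusted permutation p under 0.05. Fabp3 had an r of -0.456 and a rho of -0.397 (adjusted permutation p for r = 0.0121). With the smooth muscle sum, Acot1 had an r of -0.673 and a rho of -0.491 (permutation p = 2e-05 and 0.00277, adjusted 0.000133 and 0.00923), and an r of -0.581 without the 2 farthest libraries.

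**Figure D5:**
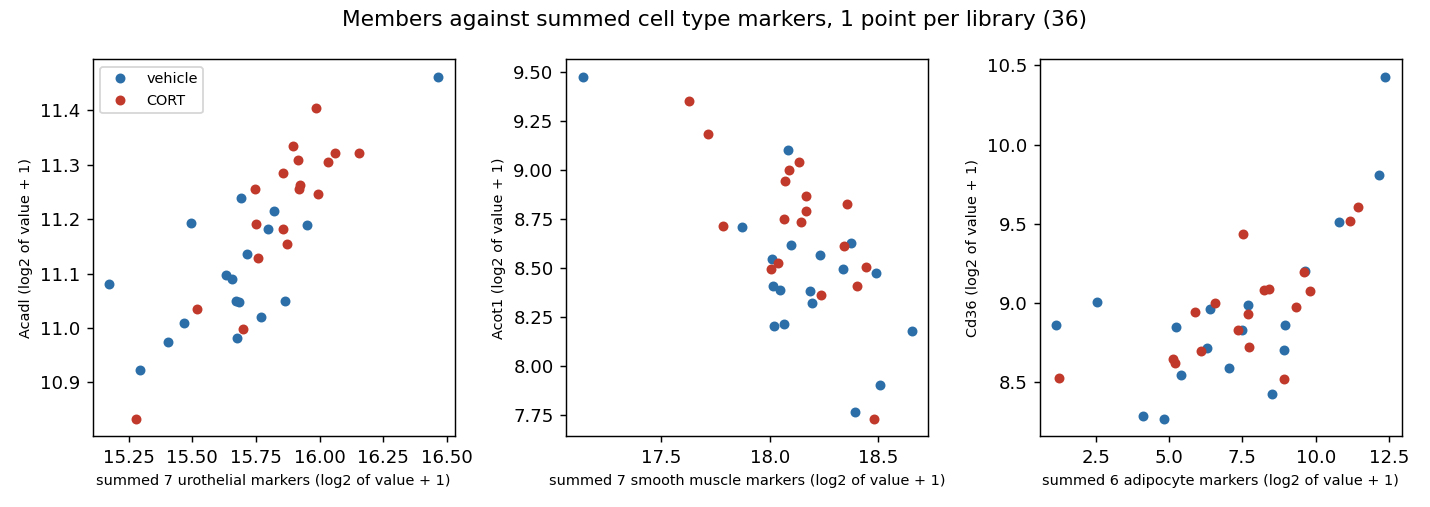
Level of Acadl, Acot1 and Cd36 in 36 libraries (log2 of value + 1) against the summed markers of urothelium, smooth muscle and fat cells on the same log2 scale, with vehicle in blue and CORT in red. Acadl goes up with the urothelial sum (r 0.807), Acot1 down with the smooth muscle sum (r -0.673), and Cd36 up with the adipocyte sum (r 0.666).

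Cd36 was the 1 member with an r above 0.5 with the sum of 6 adipocyte markers, against 0.479% of features. That sum ran from 1.23 to 5288 per library. The r was 0.666 and rho 0.641 (permutation p = 2e-05 and 4e-05, adjusted 0.000133 and 0.0003). It was 0.716 without the 2 farthest libraries, 0.654 within vehicle and 0.707 within CORT, and 0.852, 0.641 and 0.645 within replicates 1 to 3. The highest Cd36 value, 1379, and the highest adipocyte sum belonged to the same library, vehicle 4 h replicate 3. Of 3 brown fat markers, Ucp1 and Elovl3 were too low to be tested. The third, Cidea, differed by 0.83 over the day (limma adjusted p = 0.117) and by 2.33 at 8 h (limma adjusted p = 0.121). The 3 together summed to a median of 4.44 with vehicle and 5.90 with CORT, a few reads per library.

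The urothelial sum itself had a median of 60500 with CORT and 52503 with vehicle. All 7 urothelial markers were above 0 over the day, by 0.08 to 0.25 on the log2 scale, and none passed the test (3 had an unadjusted p under 0.05, and the smallest limma adjusted p was 0.0508, that of Upk3a). With the sum as a covariate in the fit, a setting added after seeing the data, the median difference of the members was 0.04 in place of 0.08. Of the 30 members 21 were then above 0, 3 had an unadjusted p under 0.05 and none passed the limma test. Hsd17b10 was then at 0.12 (limma adjusted p = 0.0510) and Pdk4 at 4 h at 1.09 (limma adjusted p = 0.0592), both past the threshold no longer, whereas Klf15 at 4 h was at 2.20 and passed it (limma adjusted p = 0.0148). The sum is itself made of RNA levels with a higher median in CORT, so this fit cannot tell the share of urothelial cells from their RNA. For the members, the part that tissue mix has in the differences was not tested.

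Promoter windows from RefSeq (GRCm38.p6, 250 bases before to 50 after each gene's start) were found for 27 of the 30 genes, all except Cpt1b, Acaa2 and Decr1. None of the 27 held, on either strand, an exact match to a PPAR response element (AGGTCA, any 1 base, AGGTCA, in 0.0396% of all promoters), an ERR element (TCAAGGTCA, 0.423%), a glucocorticoid element (AGAACA, any 3 bases, TGTTCT, 0.00913%), a CACGTG E-box (7.15%) or a TTATGTAA D-box (0.938%). Such matches are rare in windows of this length, and no match says only that these letters are not in the window.

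In the day mean, the result of 0 members past the test depended on the scale. On the scale as deposited per treatment, which was set separately for CORT and vehicle, 11 of 30 members passed and 2746 features did, 81.8% of them higher with CORT, against 735 features and 31.3% on the common scale.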

How the data were processed

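Whole bladder RNA-seq libraries (36) were analysed. The members and gene lists were chosen with earlier results of these data known. The deposited values are a signal per gene: read counts after quantile normalization by the authors across each table's 12 libraries, as the values themselves show. Per the submitters' processing notes the genome build is mm10, while aligner, counting program and strand setting are unstated in the sources used here. The authors also deposited tables of selected genes as log2 values, which served only to compare library names and held none of the members. Columns were matched to samples by name, and 0 columns were left unmatched.

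Because tables were normalized per treatment, a common scale for all 36 libraries was rebuilt from ranks. Features at the lowest value in over 50% of libraries were dropped, leaving 17744. Values were tested as log2(value + 1) with limma 3.58.1 (R 4.3.3) on 12 group means, and fold changes are on that scale, which understates the change of low genes. Rhythms were tested with a 24 h cosine and sine. Benjamini-Hochberg adjustment ran over all features in each contrast. The scripts were tested on simulated data. The named genes are all members, the pathway genes past the threshold over the day or else the 1 with the smallest p per list, and the 3 members with the smallest p at each time or rhythm; Pdk4, Klf15 and other genes were named after their values were seen. Correlations used 100000 permutations, two-sided, adjusted over the 120 relations. The permutations shuffled all 36 libraries freely, without regard to group or replicate number. Exon lengths and positions are from GENCODE vM21. Alternatives changed the pseudocount, filter, variance model, library weights, scale, library names, replicate block and libraries left out.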

Additional observations from a re-analysis of the deposited data

How the results depend on the processing

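With no filter, 3 members passed over the day and 4 over the single times. That fit also held the 31841 features at the lowest value in most libraries. Of the 28673 features passing over the day, 5.08% were higher with CORT, and the median difference of all features was -0.00033. The lowest value differed by treatment on the common scale (for Cpt1b, 0 with CORT and 0.00023 with vehicle). Why more members passed was not tested. Over the day, library weights gave 9 members, the scale as deposited 11 and a common cosine and sine 1; leaving out single libraries or replicate numbers gave 0 to 2 (2 without CORT 8 h replicate 3 or vehicle 12 h replicate 2, 1 without CORT 12 h replicate 2 or vehicle 16 h replicate 3); for these the cause was not tested. The vehicle rhythm gave 0 to 1 (Cpt1b without vehicle 12 h replicate 1 or 3). The labels do not tie same-numbered libraries to each other, and the correlations of their deviations ran from -0.345 to 0.355 over 198 pairs (median 0.0410), so the numbers were not taken as pairs; 30 of 36 libraries nevertheless correlated best with their own number. The replicate block gave 1 member, Hadhb (limma adjusted p = 0.0403), and 1237 features in place of 735. The CORT rhythm and the rhythm difference gave 0 members in every setting run. The median difference over the day, 0.0800, was above 0 in every setting run and ranged from 0.0384 with the urothelial covariate to 0.151 on the scale as deposited. The features passing over the day numbered 409, 1 and 29 without replicates 1, 2 and 3, 3220 with library weights, 28673 with no filter, 6 without the 8 libraries of 2 names and 0 with the other names. The median member difference was 0.116 in the replicate 3 libraries alone, whose times stand in their titles and not in the time field of the labels, and 0.0669 without them. At a few reads per library, changes inside the intervals of Cpt1b (0.807- to 2.15-fold) and Ucp3 (0.683- to 1.52-fold) were not detectable.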
